A study of Homo sapiens with 6 samples.

Results

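PLA2G4A, its neighbour ERVMER61-1 and 7 further genes of prostaglandin synthesis and breakdown were described in H1299 cells with and without a guide RNA against SETDB1. The 9 genes were matched by symbol in GENCODE 29 to a deposited table of 18677 gene rows, and 7 of them were found there: PLA2G4A, ERVMER61-1, PTGS2, PTGES, PTGES2, PTGES3 and PTGR1. PTGS1 and HPGD were not among its rows, so no levels are given for them. Every row held at least 11 counts in some sample, so genes with fewer in all samples are absent. PLA2G4A and ERVMER61-1 reached that number only in knockout samples. The set was selected on the measured difference between the groups in 2 of its genes, the joint rise of PLA2G4A and ERVMER61-1 in these samples. The values of this pair are therefore given as a description with no test, and they support nothing else. The other members were named for their function.

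H1299 is an established human line of non-small cell lung cancer. The study sequenced RNA of 6 samples: 3 of cells with the guide named hSETDB1 sg1 (SETDB1 knockout) and 3 of cells with the guide named Control sg2 (control knockout), all grown with puromycin. Each group rests on 1 guide. The labels do not say whether the cells were clones or pools, or whether replicates were separate cultures, so p-values measure only the spread between these samples, which may be technical.

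SETDB1 is a histone methyltransferase that writes the repressive mark H3K9me3, which keeps many endogenous retroviruses and some host genes silent. Prostaglandins are lipid signals made from arachidonic acid. PLA2G4A encodes cytosolic phospholipase A2 alpha, which frees arachidonic acid from membrane phospholipids when calcium rises. The cyclooxygenases encoded by PTGS1 and PTGS2 turn it into prostaglandin H2, and the synthases encoded by PTGES, PTGES2 and PTGES3 turn that into prostaglandin E2. The enzymes encoded by HPGD and PTGR1 then inactivate it. In lung cancers this pathway is known mainly for inducible PTGS2 and prostaglandin E2. ERVMER61-1 is a long non-coding RNA gene named for an endogenous retrovirus of the MER61 family.

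The bases just before the start sites of PLA2G4A, PTGS2 and PTGES are shown because the first pair are neighbours that differed in opposite directions, while PTGES was higher in the knockout, as PLA2G4A was. They are from the RefSeq promoter table (GRCh38.p14), 250 bases each, written 5′ to 3′ on the strand of the gene, with capitals marking CG dinucleotides, the sites of most DNA methylation.
PLA2G4A, chr1:186828699-186828948, plus strand: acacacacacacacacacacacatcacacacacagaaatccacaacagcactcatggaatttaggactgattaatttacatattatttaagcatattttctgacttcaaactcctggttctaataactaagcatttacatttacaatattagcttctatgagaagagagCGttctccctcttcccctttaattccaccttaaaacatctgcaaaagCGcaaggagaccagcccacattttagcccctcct
PTGS2, chr1:186680424-186680673, minus strand: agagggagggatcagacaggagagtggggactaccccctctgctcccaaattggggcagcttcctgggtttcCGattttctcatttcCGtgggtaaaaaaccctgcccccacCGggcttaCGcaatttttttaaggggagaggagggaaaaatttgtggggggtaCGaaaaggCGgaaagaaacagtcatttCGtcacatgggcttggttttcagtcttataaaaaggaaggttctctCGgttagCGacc
PTGES, chr9:129753043-129753292, minus strand: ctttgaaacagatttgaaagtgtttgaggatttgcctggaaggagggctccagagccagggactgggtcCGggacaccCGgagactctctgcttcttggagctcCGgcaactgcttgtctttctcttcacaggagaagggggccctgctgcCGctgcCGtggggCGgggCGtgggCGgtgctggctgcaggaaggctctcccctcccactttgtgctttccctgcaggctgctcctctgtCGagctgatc

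The PLA2G4A window held 2 CG dinucleotides and was 38.8% G or C. It opened with an unbroken AC repeat of 22 bases. Over 34943 windows of the same length in that table the medians were 11 CG dinucleotides and 58% G or C, and 22.9% of the windows had as few CG dinucleotides or fewer. PTGS2 and PTGES had 9 each, PTGR1 had 13 and PTGES3 had 30, and the 3 windows of PTGES2 had 29, 21 and 35. Of the 8 members with an entry, PLA2G4A had the fewest. Both strands were searched for the TATA box TATAAA, the cyclic AMP response element TGACGTCA, the E-box CACGTG, the AP-1 site TGANTCA, the GC box GGGCGG, the C/EBP-like string TTNNGNAA and the NF-kB motif. The PLA2G4A window held none of these letters, and neither did that of PTGR1. The PTGS2 window held TATAAA, found in 10.8% of all windows, 26 bases from the start site. It also held TTNNGNAA, found in 33.2%. GGGCGG, found in 42.55%, was in the windows of PTGES and PTGES3 and in all 3 of PTGES2. The PTGES3 window also held the NF-kB motif (9.95% of all windows), and 1 of the PTGES2 windows held CACGTG (6.32%) and TTNNGNAA. Of the genes with no values here, PTGS1 held GGGCGG in both its windows, with TATAAA in 1 and TTNNGNAA in the other, and HPGD held GGGCGG and the NF-kB motif in 1 of its windows. The promoter table had entries for 8 of the 9 genes, and ERVMER61-1 was not among them.

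Levels below are counts per 1000000 (CPM), the read count of a gene scaled by the TMM-adjusted size of the library. Fold changes are SETDB1 knockout over control from edgeR's quasi-likelihood fit. Their standard error (SE) is approximate, the size of the log2 fold change over the square root of the test's F statistic. For genes with few reads it can fall below counting error. A gene was called at a Benjamini-Hochberg adjusted p under 0.05 over all 17675 genes tested. Libraries held 29532057 to 35941288 counts, so 1 count was 0.0282 to 0.0334 CPM. SETDB1 mRNA was 38.6 ± 2.31 CPM in the knockout and 43.5 ± 1.76 in the control (SD, n = 3). It fell by 0.17 ± 0.06 (SE) on the log2 scale (edgeR adjusted p = 0.0151). That call was lost without SETDB1-knockout replicate 2 (edgeR adjusted p = 0.0896) and with scaling by library size alone (0.0605), and the fall was 0.28 with the median change of the genes around SETDB1 taken out. Counts per gene do not show whether the guide edited the gene. KRT8 and KRT18, keratins of epithelial tumours, were abundant, and their lung carcinoma list with 5 of 8 markers in the table summed to 518 to 530 CPM in the knockout and 960 to 1031 in the control. EPCAM, another epithelial marker, had 18 counts in the knockout and 25 in the control. Leukocyte markers had 2 of 7 in the table (ITGAM and CD68; 5.40 to 6.61 against 2.46 to 3.30 CPM), mast cell and platelet markers 1 of 6 (1.11 to 1.30 against 0.567 to 1.13), endothelial markers 2 of 4 (1.47 to 1.94 against 3.37 to 3.84) and fibroblast markers 3 of 5 (1.13 to 1.39 against 1.70 to 1.84). The part of these markers in the results was not tested.

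PLA2G4A was close to silent in the control cells and expressed at a low level in the SETDB1-knockout cells, and ERVMER61-1 went the same way. PTGS2, the gene of the next enzyme and the nearest gene of the table on the other side of PLA2G4A, was lower in the knockout. PTGES and PTGES2 were higher and PTGR1 was lower. Of the 5 members named by function, 2 were called higher and 3 lower by edgeR, in a comparison where 63.5% of all genes tested were called, 31.9% higher and 31.6% lower. With most genes of the table called, 5 calls among 5 genes say little about this set as such. Libraries of the groups did not overlap for 4 of these 5, all but PTGES3, beside 66.8% of all genes tested.

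PLA2G4A (ENSG00000116711, GRCh38 chromosome 1, 186828953 to 186988981, plus strand) had 71, 94 and 76 reads in the SETDB1-knockout libraries and 1, 1 and 0 in the control libraries. In CPM these were 2.37, 2.72 and 2.22 against 0.0334, 0.0315 and 0. All 3 knockout libraries were high, and no control library held more than 1 read. The groups summed to 241 and 2 counts, a ratio of 118 with an exact 95% counting interval of 32.4 to 983, which covers counting error only. The width of that interval comes from the 2 control counts, so the size of the rise is known poorly. The fitted log2 fold change was 6.64, which depends on the prior count and gives no bound on the rise. Each library is RNA of a whole culture, so expression in more cells and more RNA per cell cannot be told apart.

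ERVMER61-1 (ENSG00000230426, chromosome 1, 187070700 to 187686622, plus strand) starts 81.7 kb beyond the end of PLA2G4A on the same strand. GENCODE 29 gives it 10 transcripts spread over 616 kb, against 160 kb for PLA2G4A. Its reads numbered 62, 101 and 76 in the knockout libraries and 5, 4 and 6 in the control libraries. This was 2.07, 2.92 and 2.22 CPM against 0.167, 0.126 and 0.169 CPM, with no overlap of the groups. Unlike PLA2G4A, the gene had some reads in every control library. The count ratio was 15.7 (exact 95% counting interval 9.30 to 28.4), and the fitted log2 fold change was 3.93. In the knockout, replicate 2 was the highest library for both genes. Whether reads of the pair come from separate transcripts cannot be read from counts per gene. Other GENCODE 29 genes overlap ERVMER61-1 (2 on its own strand and 1 on the other), none of them a row of the table.

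Both genes were among the 253 of 17675 with a fitted rise of at least 10-fold (1.43%), and the groups of both did not overlap, with the knockout higher, as for 33.5% of all genes tested. These values chose the pair, and nothing is read from them.

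PTGS2 (ENSG00000073756, chromosome 1, 186671791 to 186680427, minus strand) encodes the inducible cyclooxygenase, COX-2, and starts 149 kb from the start of PLA2G4A, pointing away from it. The knockout libraries gave 1.27, 1.21 and 1.35 CPM and the control libraries 2.24, 1.92 and 1.89 CPM. The group levels were 1.28 ± 0.0668 and 2.02 ± 0.190 CPM (SD, n = 3), with every control library above every knockout library. PTGS2 fell by 0.65 ± 0.16 (SE) on the log2 scale (edgeR adjusted p = 0.00153). Its count ratio was 0.635 (exact 95% counting interval 0.503 to 0.799), from 126 and 195 reads. The fall stayed called under all 15 alternatives, with log2 values from -0.70 to -0.58.

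PTGES (ENSG00000148344, chromosome 9, 129738331 to 129753047, minus strand) encodes the inducible microsomal prostaglandin E synthase, the enzyme usually coupled to COX-2. It had 38, 35 and 36 reads in the knockout and 15, 17 and 17 in the control, or 1.27, 1.01 and 1.05 CPM against 0.5005, 0.536 and 0.480 CPM. The knockout libraries all lay above the control libraries. The log2 fold change was 1.12 ± 0.23 (SE; edgeR adjusted p = 2.59e-04), and the count ratio was 2.19 (exact 95% counting interval 1.55 to 3.13). PTGES and PTGS2, which are often induced together, thus differed in opposite directions in these libraries.

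PTGES2 (ENSG00000148334, chromosome 9, 128120693 to 128128462), a membrane-associated synthase, stood at 63.0, 64.0 and 63.6 CPM in the knockout and at 49.0, 51.6 and 49.4 CPM in the control. The groups were tight and did not overlap, and PTGES2 rose by 0.35 ± 0.05 (SE) on the log2 scale (edgeR adjusted p = 7.20e-06). PTGES3 (ENSG00000110958, chromosome 12, 56663341 to 56688408) encodes the cytosolic synthase, which is also the HSP90 co-chaperone p23. It was by far the most abundant member, at 536, 614 and 597 CPM in the knockout and 607, 635 and 696 CPM in the control. Its groups overlapped, and its log2 fold change of -0.15 ± 0.06 (SE) was called narrowly (edgeR adjusted p = 0.0472). The call was lost in 7 alternatives, among them without SETDB1-knockout replicate 1 or 3 and without control replicate 2 or 3 (edgeR adjusted p from 0.0707 to 0.220). The 25 expressed genes on each side had a median of 0.26, and with this taken out PTGES3 stood at -0.41 (edgeR adjusted p = 2.06e-05). RN7SL809P lies within PTGES3 on the same strand and is also a row of the table.

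PTGR1 (ENSG00000106853, chromosome 9, 111549722 to 111599893, minus strand) encodes prostaglandin reductase 1, which acts after HPGD in breaking down prostaglandins and also inactivates leukotriene B4. Its levels were 4.999, 4.22 and 4.80 CPM in the knockout and 7.77, 9.05 and 8.56 CPM in the control. Every knockout library was below every control library. PTGR1 fell by 0.86 ± 0.10 (SE) on the log2 scale (edgeR adjusted p = 2.33e-07). The median change of the 25 expressed genes on each side was -0.42 (log2), and with this taken out PTGR1 was still called, at -0.45 (edgeR adjusted p = 7.02e-04). ZNF483 overlaps PTGR1 on the other strand, and the sources used here do not say whether reads were counted by strand.

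**Figure D1:**
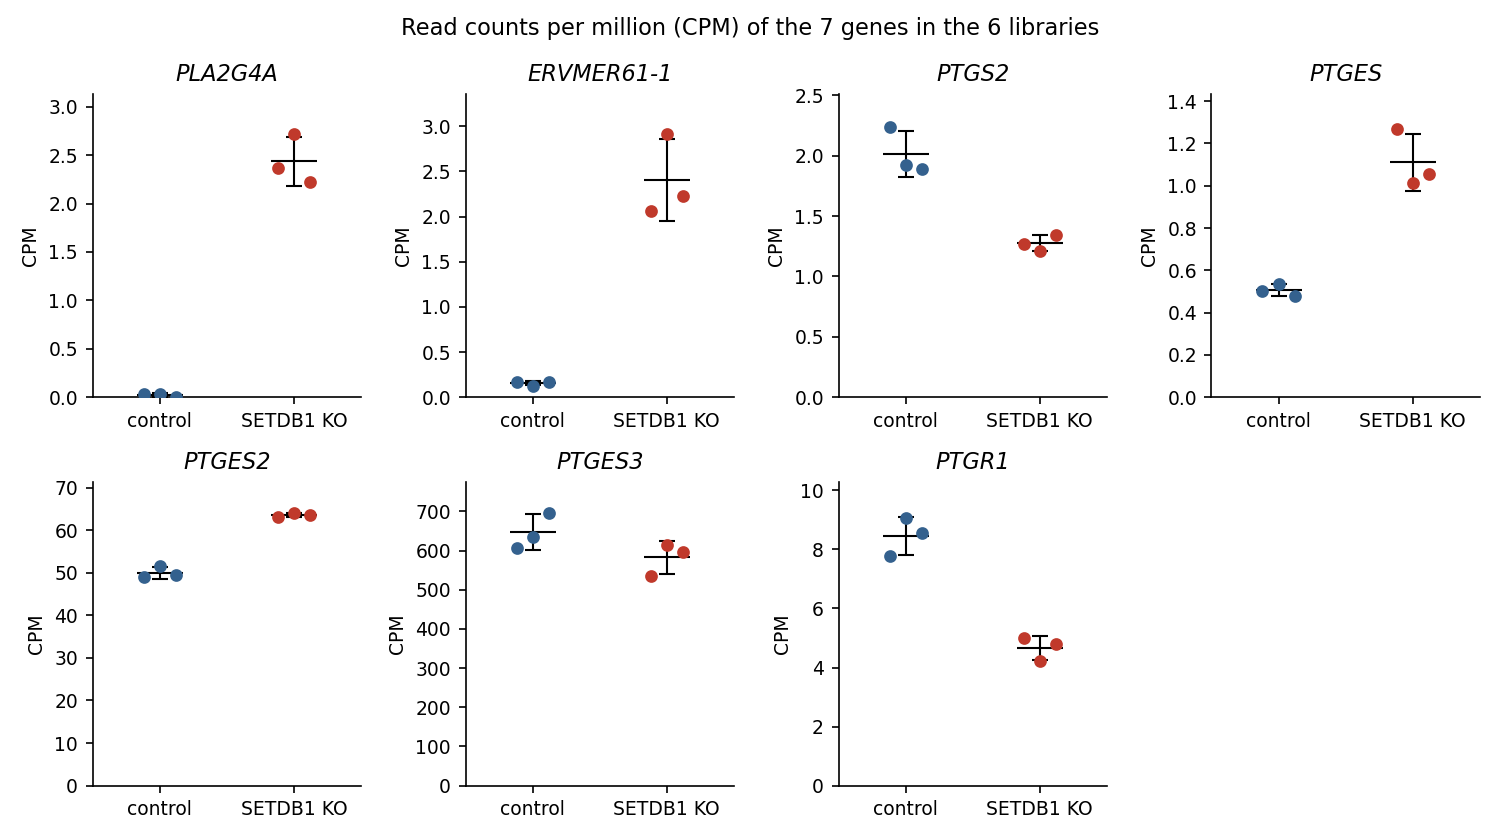
CPM (vertical axes, linear from 0) of the 7 genes in each of the 3 control (blue) and 3 SETDB1-knockout (red) libraries, with the mean and SD as black bars. PLA2G4A and ERVMER61-1 sit near 0 in the control and above 2 CPM in every knockout library; PTGS2 and PTGR1 are lower in the knockout, PTGES and PTGES2 higher, and the PTGES3 groups overlap.

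To compare levels between genes, CPM was divided by the kilobases of annotated exon. The lengths are those of GENCODE 29. The table's identifiers of ERVMER61-1 and PTGR1 carry an earlier version than GENCODE 29, and ERVMER61-1 has 10.1 kb of exon over all its transcripts, so its level per kilobase may be too low. In the control, the order of levels per kilobase was PTGES3 (190 ± 13.5 CPM per kb; SD, n = 3), PTGES2 (16.4 ± 0.469), PTGR1 (2.25 ± 0.171), PTGS2 (0.383 ± 0.0360), PTGES (0.267 ± 0.0149), ERVMER61-1 (0.0152 ± 0.00239) and PLA2G4A (0.00752 ± 0.00652). No neighbours in that order overlapped over the 3 libraries, although the last place rests on the 2 reads of PLA2G4A. In the SETDB1 knockout, PLA2G4A stood in place 4 of 7, at 0.847 ± 0.0880 CPM per kb, between PTGR1 (1.24 ± 0.108) and PTGES (0.586 ± 0.0721). PTGS2 (0.242 ± 0.0127) and ERVMER61-1 (0.237 ± 0.0447) came last and overlapped. By the values that chose it, the mRNA of the phospholipase was the rarest of the 7 in the control and above that of PTGS2 per kilobase in the knockout. Even then it remained far under PTGES2 and PTGES3.

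**Figure D2:**
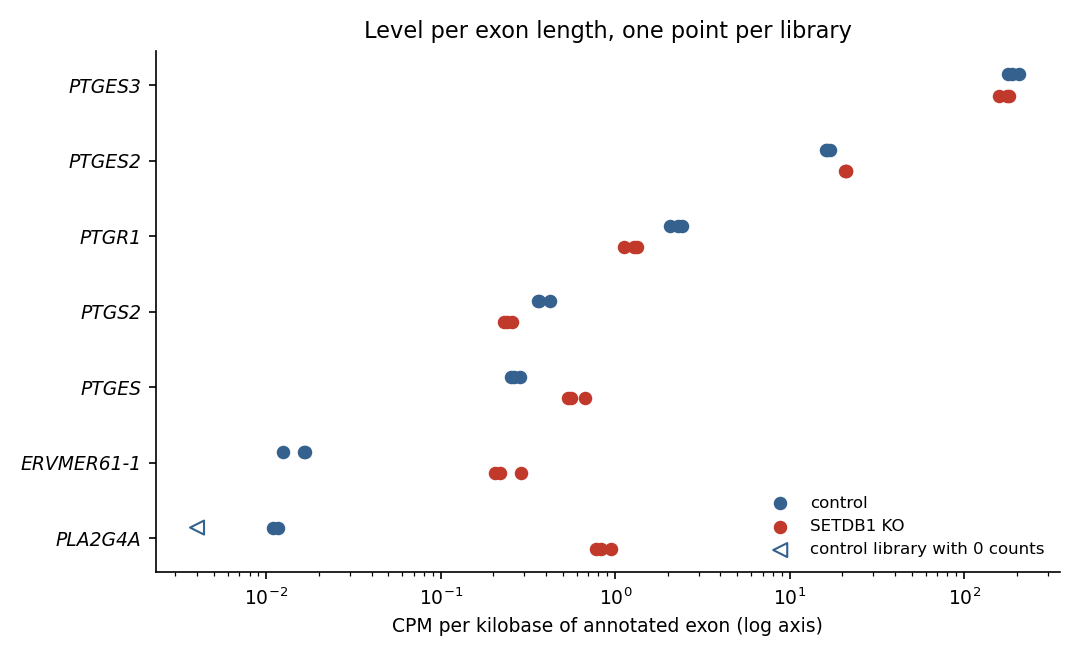
Level per kilobase of annotated exon (log axis) for each library of the 7 genes, ordered by their control mean, with control libraries in blue and SETDB1-knockout libraries in red. The open triangle at the left edge stands for the PLA2G4A control library with 0 counts; the PLA2G4A points move from the lowest place to between PTGR1 and PTGES.

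GENCODE 29 places 57 genes within 2 Mb of PLA2G4A, itself included, and 13 of them were rows of the table. Other than PLA2G4A and ERVMER61-1, 1 of 11 was called higher and 4 were called lower by edgeR, beside 31.9% higher and 31.6% lower over all genes tested. Their median log2 fold change was -0.03, against 0.01 over all genes tested. ODR4 was the gene called higher, from 40.2 ± 0.628 CPM in the control to 51.9 ± 2.18 in the knockout (log2 0.37 ± 0.05; edgeR adjusted p = 6.98e-06). Besides PTGS2, the genes called lower were FAM129A (log2 -0.82 ± 0.05), RNF2 (-0.31 ± 0.08), a Polycomb ubiquitin ligase gene, and AL078644.1 (-0.76 ± 0.31), with edgeR adjusted p of 3.71e-11, 0.00266 and 0.0365. AL078644.1 was under 1 CPM in both groups and lost its call without replicate 1 or 2 of either group (edgeR adjusted p from 0.0814 to 0.172) and with DESeq2 (DESeq2 adjusted p = 0.105). TPR, which encodes a nuclear pore protein, stood at 279 ± 16.8 CPM in the knockout and 284 ± 5.28 in the control, and IVNS1ABP at 73.9 ± 0.386 and 74.2 ± 0.646 CPM; neither was called. SWT1 (log2 -0.08 ± 0.10), HMCN1 (0.08 ± 0.09), TRMT1L (0.18 ± 0.08) and OCLM (0.48 ± 0.41) were not called. TRMT1L was called without SETDB1-knockout replicate 1 or control replicate 3 (edgeR adjusted p from 0.0162 to 0.0349). It was also called with library size alone, with upper-quartile scaling and with the replicate number as a block (edgeR adjusted p from 0.0166 to 0.0309). OCLM, under 1 CPM, was called at a log2 of 1.23 without control replicate 2 (edgeR adjusted p = 0.0239).

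In a wider window of 10 Mb, chosen after the values were seen, 13 of 66 genes were called higher and 21 lower, beside the same 31.9% and 31.6% over all genes. Among them, and also named after their values were seen, were BRINP3 on the far side of ERVMER61-1 and RGS2 beyond it. BRINP3 went from 0.204 ± 0.0484 to 1.32 ± 0.196 CPM (log2 2.66 ± 0.28). RGS2, which encodes a regulator of G protein signalling, rose from 1.71 ± 0.190 to 5.31 ± 0.189 CPM (log2 1.62 ± 0.12, edgeR adjusted p = 7.83e-10). On the other side, NMNAT2 went from 0.110 ± 0.0531 to 0.925 ± 0.270 CPM (log2 2.97 ± 0.38), while RALGPS2 fell by 1.83 ± 0.10 on the log2 scale (edgeR adjusted p = 5.81e-12). BRINP3 and NMNAT2 reached 11 counts only in knockout samples, so they could be rows only by being higher there. Both are among the 13 called higher, and no adjusted p is given for them.

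**Figure D3:**
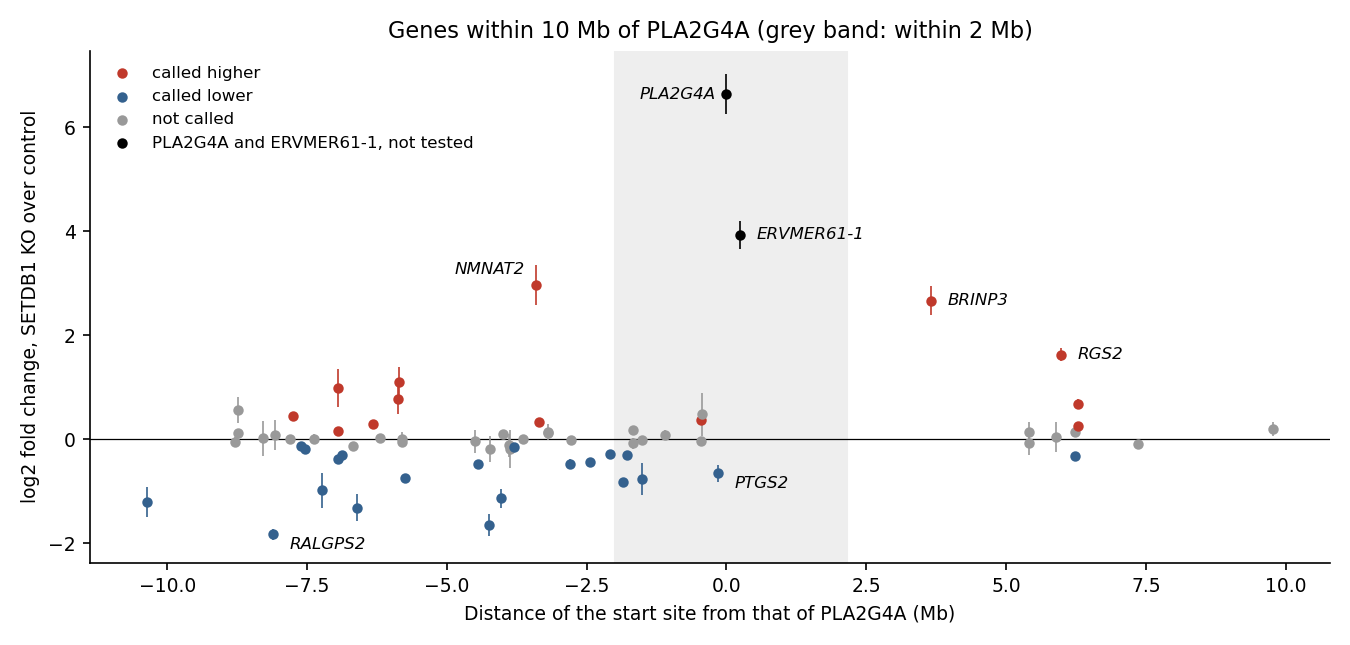
Log2 fold change of SETDB1 knockout over control (vertical axis, bars are SE) against the distance of each gene's start site from that of PLA2G4A in Mb, with genes called higher in red, called lower in blue and not called in grey. PLA2G4A and ERVMER61-1 (black, not tested) stand at 6.64 and 3.93, while PTGS2 beside them is at -0.65.

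The pattern most like that of PLA2G4A was sought over all genes tested as the smallest root mean square difference of centred log2 CPM over the 6 libraries. A prior count of 2 was used for this log2 CPM, which shrinks differences between genes with few reads. The nearest were CHRM3, a muscarinic receptor gene (0.18 on the log2 scale), PIWIL1, a germline piRNA gene (0.21), SPANXA2, a cancer-testis gene with near-identical copies (0.23), ERVH-1 (0.23) and SLITRK4 (0.24). All went from 0.253 CPM or less in the control to between 1.59 and 7.68 CPM in the knockout. Their fitted log2 fold changes lay further apart, from 4.93 for CHRM3 to 8.83 for SPANXA2, against 6.64 for PLA2G4A. A rise follows from the search, since PLA2G4A was itself chosen for its rise. All of the genes found also reached 11 counts only in knockout samples. CHRM3 alone of them lies on chromosome 1. ERVMER61-1 ranked 137 of 17674 by this measure, at 0.77.

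Rows whose symbols begin with ERV numbered 9, and of the 8 tested other than ERVMER61-1, 3 were called higher and 1 lower by edgeR, beside 31.9% and 31.6% of all genes. Their median log2 fold change was 0.24. ERVH-1 went from 2 to 314 counts per group, whereas ERVMER34-1 fell by 0.98 ± 0.14 on the log2 scale. ERVH-1, among the 3 called higher, reached 11 counts only in knockout samples, so it could be a row only by being higher there.

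Other genes of the pathway were taken from 8 lists of 134 genes, of which 95 were in the table and tested. By edgeR 28 were called higher and 39 lower, or 70.5%, beside the 63.5% of all genes, with a median log2 fold change of -0.03. At least 2-fold changes were called for 7 higher and 8 lower of the 95, beside 7.14% and 5.78% of all genes tested.

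Among other phospholipase A2 genes, 2 of 13 were called higher and 4 lower, with a median of -0.01. PLA2G4C, the expressed paralog of PLA2G4A, stood at 7.04 ± 0.0996 CPM in the knockout and 7.10 ± 0.379 in the control and was not called (edgeR adjusted p = 0.930). PLA2G4B, another paralog, stood at 0.410 ± 0.132 and 0.529 ± 0.0909 CPM and was not called either (edgeR adjusted p = 0.342). PLA2G6, the calcium-independent enzyme, rose by 0.35 ± 0.09 (edgeR adjusted p = 0.00155), and PLA2G16, which encodes an adipose phospholipase, fell by 0.83 ± 0.08 on the log2 scale (edgeR adjusted p = 1.32e-08). PAFAH1B2 and PAFAH1B3, subunits of a platelet-activating factor hydrolase, fell by 0.40 ± 0.06 and 0.55 ± 0.05. The genes around PAFAH1B3 had a median of -0.88, and with this taken out its value was 0.33, while PAFAH1B2 stood at -0.17 (edgeR adjusted p = 0.0282) with its own median of -0.23 taken out. For PLA2G6 the neighbourhood median was 0.22, and its call was lost with this taken out (edgeR adjusted p = 0.197).

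Genes that make, activate or store arachidonate were called lower in 10 and higher in 6 of 21, with a median of -0.18. MGLL, which cleaves arachidonoylglycerol and so frees arachidonate by another route, fell from 110 ± 1.94 to 34.1 ± 1.88 CPM (log2 -1.69 ± 0.06, edgeR adjusted p = 1.87e-15). ACSL4, the acyl-CoA synthetase that prefers arachidonate, fell from 148 ± 3.05 to 68.1 ± 7.76 CPM (log2 -1.12 ± 0.07, edgeR adjusted p = 1.33e-11). The diacylglycerol lipase genes split, with DAGLB lower by 0.77 ± 0.06 and DAGLA higher by 0.73 ± 0.10 on the log2 scale. MBOAT7, which puts arachidonate into phosphatidylinositol, rose from 69.8 ± 6.24 to 123 ± 6.29 CPM in a stretch with a median of 0.74, and was not called with this taken out (edgeR adjusted p = 0.282). LPCAT2 rose by 0.63 ± 0.08. With the neighbourhood median taken out, LPCAT2 was at 0.41 and DAGLB at -0.48, both still called.

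Synthases of other prostanoids were called higher in 4 and lower in 4 of 9, with a median of 0.49. AKR1B1, an aldose reductase that can make prostaglandin F2alpha, rose from 32.2 ± 2.61 to 81.0 ± 0.832 CPM (log2 1.33 ± 0.06, edgeR adjusted p = 2.25e-13). CBR1, a carbonyl reductase that turns prostaglandin E2 into F2alpha, rose by 0.60 ± 0.06, and PRXL2B, a prostaglandin F synthase gene, by 0.53 ± 0.08. The glutathione transferase genes GSTM3 and GSTM2 fell by 1.48 ± 0.10 and 0.79 ± 0.17, and CBR3 fell by 0.74 ± 0.14. GSTM and CBR genes have close paralogs, so their counts are uncertain where reads are shared.

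The receptor list had 6 genes in the table, 5 receptors and PTGFRN, which encodes a partner of the F2alpha receptor. PTGFRN and 3 of the receptors were called lower and 1 receptor higher, with a median of -0.84 over the 6. The prostaglandin E2 receptor gene PTGER3 fell from 1.24 ± 0.0275 to 0.305 ± 0.0615 CPM (log2 -2.01 ± 0.25, edgeR adjusted p = 7.43e-07). PTGFR, the F2alpha receptor gene, fell from 1.67 ± 0.258 to 0.611 ± 0.131 CPM (log2 -1.43 ± 0.21, edgeR adjusted p = 8.56e-06). PTGER1, another E2 receptor gene, rose from 1.99 ± 0.796 to 4.24 ± 0.561 CPM (log2 1.11 ± 0.18, edgeR adjusted p = 2.59e-05). PTGER4 had 5.62 ± 0.319 CPM in the control and 4.72 ± 0.283 in the knockout (edgeR adjusted p = 0.0340), and lost its call without replicate 2 or 3 of the knockout or 1 or 2 of the control (edgeR adjusted p from 0.0832 to 0.108), and in 4 of the other alternatives (adjusted p from 0.0659 to 0.349).

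Of transport and breakdown genes, 1 of 7 was called higher and 4 lower, with a median of -0.25. SLCO4A1, an organic anion transporter gene whose protein can carry prostaglandins, rose from 18.01 ± 2.37 to 66.5 ± 3.67 CPM (log2 1.89 ± 0.08, edgeR adjusted p = 4.25e-14). ABCC4, a prostaglandin exporter gene, fell by 0.42 ± 0.06 (0.23 with the neighbourhood median taken out), and ZADH2 and AKR1C2 fell by 0.31 ± 0.06 and 0.36 ± 0.12. The last pair lost their calls with the neighbourhood median taken out (edgeR adjusted p = 0.0593 and 0.0765), and AKR1C genes share near-identical sequence.

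The branch to leukotrienes and epoxides was called higher in 6 and lower in 3 of 12, with a median of 0.28. EPHX2, the soluble epoxide hydrolase gene, rose from 0.710 ± 0.182 to 3.88 ± 0.0848 CPM (log2 2.44 ± 0.17, edgeR adjusted p = 1.53e-10). EPHX1 and MGST1 rose by 0.72 ± 0.07 and 0.49 ± 0.06. CYP2J2 and CYP2U1, cytochrome P450 genes, fell by 0.93 ± 0.13 and 0.49 ± 0.07, and GGT1 fell by 0.94 ± 0.21.

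Genes of the kinases and annexins that act on cytosolic phospholipase A2 were called lower in 6 and higher in 4 of 12, with a median of -0.16. MAPK8 and CAMK2G fell by 0.77 ± 0.06 and 0.51 ± 0.06. The neighbours of MAPK8 had a median of -0.44, and with this taken out it stood at -0.33 (edgeR adjusted p = 9.68e-05). Those of CAMK2G had a median of -0.50, and its call was lost with this taken out (edgeR adjusted p = 0.880). S100A10, whose protein binds annexin A2, rose by 0.62 ± 0.07 and CAMK2D by 0.23 ± 0.06. MAPK3 was called higher at 0.15 ± 0.06 (edgeR adjusted p = 0.0413), in a stretch with a median of 0.17 that brought it to -0.019 when taken out. That call held without SETDB1-knockout replicate 1 and was lost when any other library was left out (edgeR adjusted p from 0.0592 to 0.205). It was also lost with DESeq2 (DESeq2 adjusted p = 0.0865).

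Of 15 genes that act on PTGS2 transcription or mRNA decay, 4 were called higher and 4 lower, with a median of 0.03. ZFP36 and ZFP36L1 encode proteins that bind AU-rich mRNAs such as that of PTGS2 and promote their decay. They fell from 38.4 ± 2.01 to 16.8 ± 1.94 CPM and from 177 ± 1.98 to 78.9 ± 4.23 CPM (log2 -1.20 ± 0.07 and -1.17 ± 0.05, edgeR adjusted p = 2.74e-11 and 3.64e-13). ZFP36 lies in a stretch with a median of -0.78, and stood at -0.42 with this taken out (edgeR adjusted p = 6.99e-05). JUN, a subunit of AP-1, fell by 0.85 ± 0.05. CEBPB, which encodes a transcription factor of the PTGS2 promoter, rose by 0.56 ± 0.10 and lost its call with the neighbourhood median taken out (edgeR adjusted p = 0.166). KHSRP and NFKB1 were both at 0.12 ± 0.05 (edgeR adjusted p = 0.0465 and 0.0479), and at -0.11 and 0.23 with their neighbourhood medians taken out. KHSRP lost its call without replicate 2 or 3 of the knockout or 1 or 2 of the control (edgeR adjusted p from 0.110 to 0.220), and NFKB1 without any 1 of the knockout libraries or control replicate 1 or 2 (0.0823 to 0.194). With no filter KHSRP also lost its call (edgeR adjusted p = 0.0515), as did NFKB1 with no filter and with DESeq2 (adjusted p from 0.0523 to 0.0724).

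**Figure D4:**
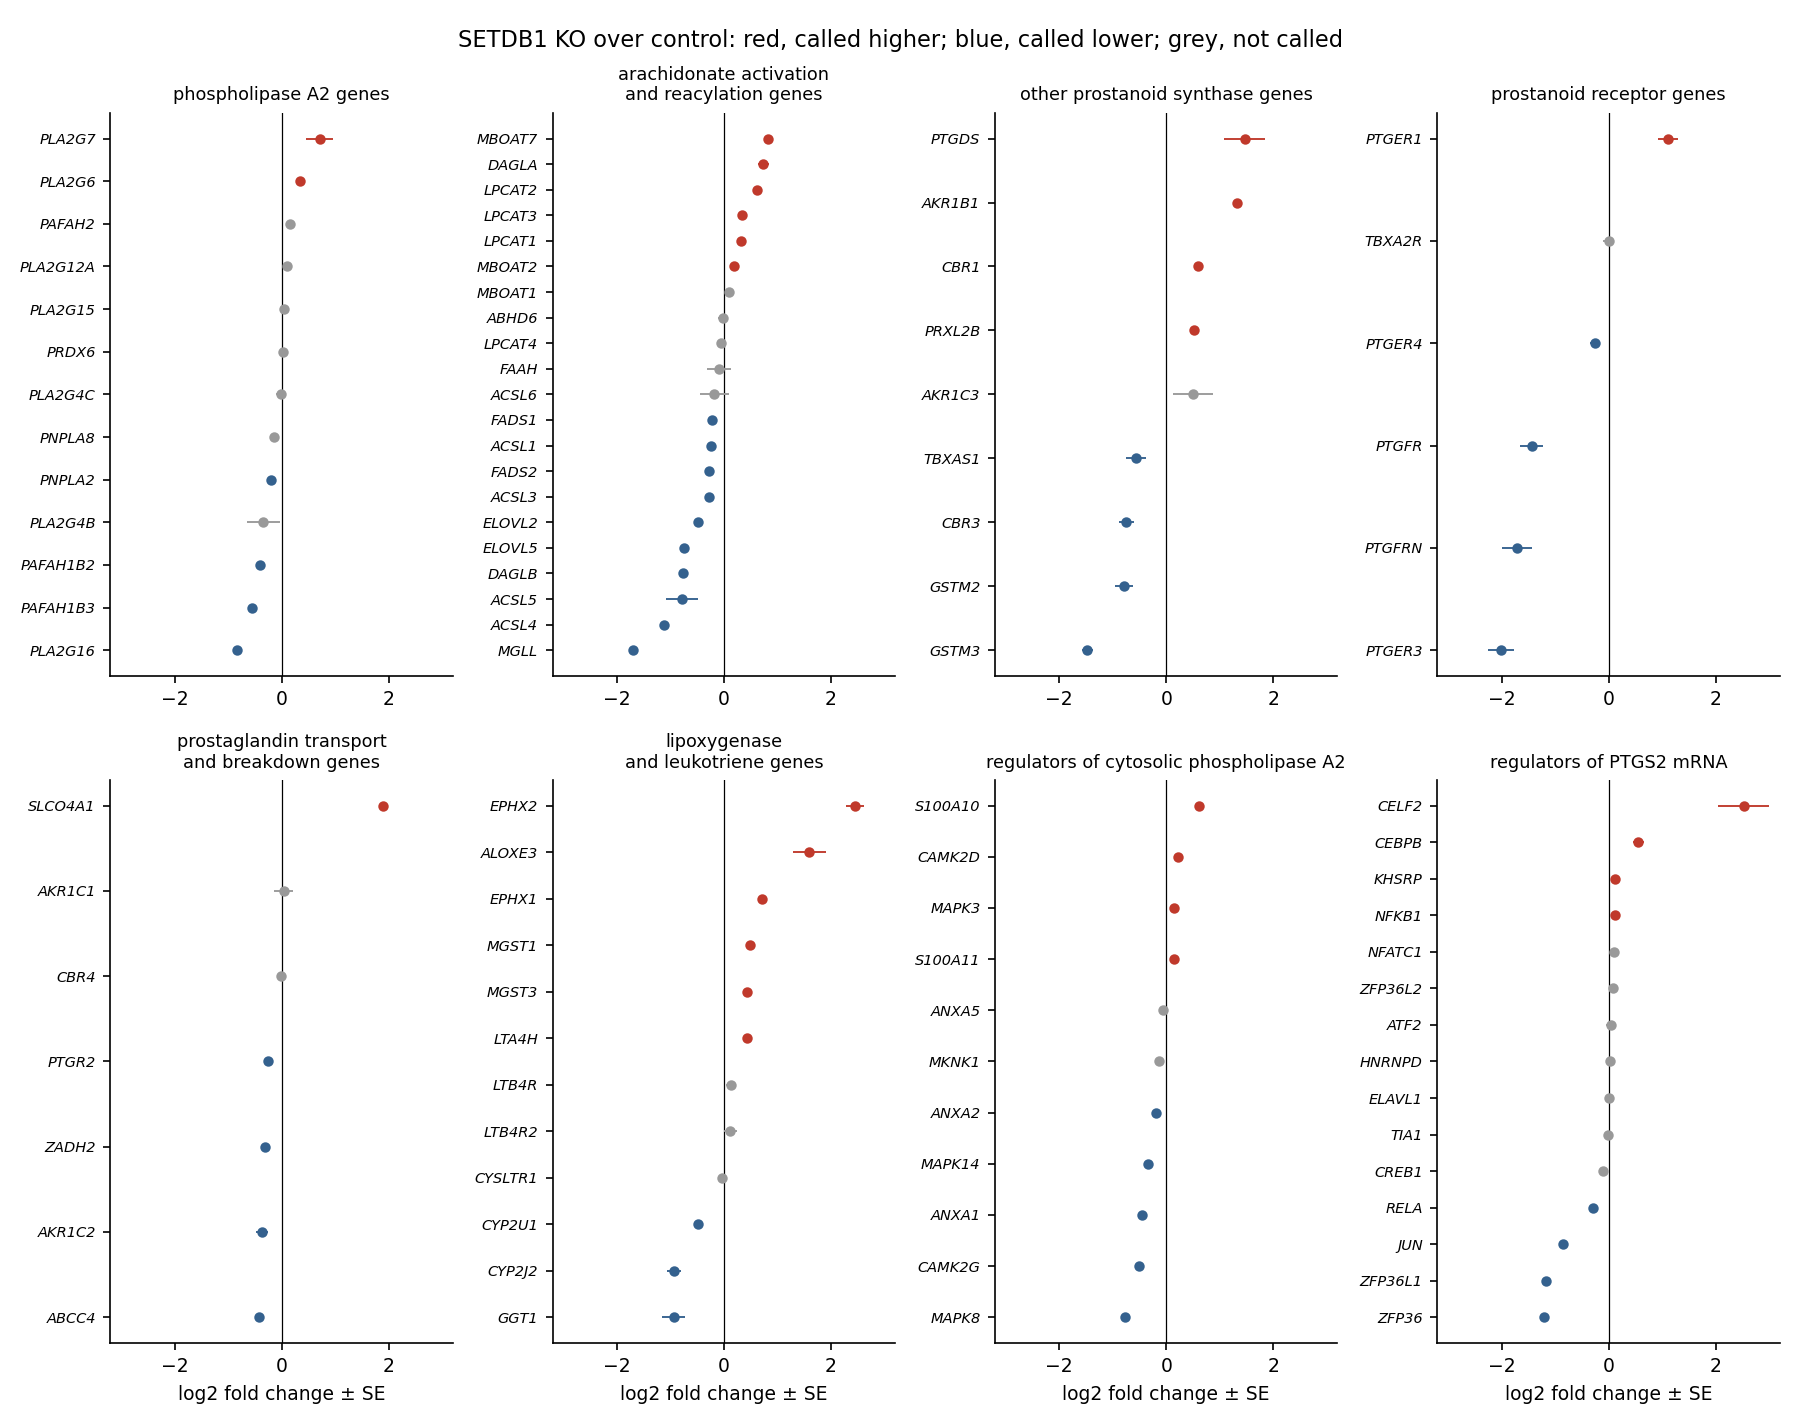
Log2 fold change of SETDB1 knockout over control (horizontal axes, bars are SE) for the tested genes of the 8 pathway lists, 1 gene left out, with genes called higher in red, called lower in blue and not called in grey. Each list holds genes on both sides of 0, with CELF2, EPHX2 and SLCO4A1 far to the right and PTGER3, PTGFRN and MGLL far to the left.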

How the data were processed

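RNA-seq libraries of 6 H1299 samples were grouped by their titles into 3 SETDB1 knockout and 3 control knockout. The authors deposited raw read counts per gene. Per the submitters' processing notes, TopHat2, HTSeq and FastQC were used with build GRCh38.p7, and no source used here gives versions or settings. Identifiers were matched without version to GENCODE 29 (18595 of 18677 rows).

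Counts were tested with edgeR 4.0.16 in R 4.3.3: filterByExpr (17675 genes kept, 1002 removed), TMM, robust quasi-likelihood fits without a block, and Benjamini-Hochberg adjustment over all genes. Counting intervals are exact (95%). The steps were tested on simulated data. Members and lists were chosen with earlier results of these data known. Named were the members, all rows within 2 Mb of PLA2G4A, up to 3 called genes per list and direction with at least 1 CPM, the 5 genes of most similar pattern, and SETDB1; exceptions are marked. Libraries within a group differed beyond counting noise (chi-square per degree of freedom 2.28 to 9.83), so each counted as 1 replicate. Counts per 1000000 reads (CPM) used TMM-adjusted library sizes. Alternatives were other scalings, filters and tests (DESeq2 1.42.0, limma-voom with limma 3.58.1), a replicate block, each library left out, and the neighbourhood median (25 expressed genes on each side, log2 CPM above 3) taken out. Promoter windows are from RefSeq (GRCh38.p14). The values of 1 gene that the naming rule selects are not reported here.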

Additional observations from a re-analysis of the deposited data

How the results depend on the processing

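The alternatives left the main counts within 1.5 times: 10042 to 11703 genes called against 11219, 4 to 5 of 5 members named by function against 5, 58 to 67 pathway genes against 67, and 4 to 6 genes near PLA2G4A against 5. With 1 library left out, the ranges were 10237 to 11094, 4 to 5, 58 to 67 and 4 to 6. In the wider 10 Mb window, added after seeing the data, 34 genes were called. With the replicate number as a block, 11703 genes, 5 members, 67 pathway genes and 6 nearby genes were called. Deviations of same-numbered libraries correlated at 0.39, -0.15 and 0.20 for numbers 1, 2 and 3. The labels do not state that a number marks a shared batch, so same-numbered libraries were not taken as pairs. The correlations do not settle this, and 2 of 3 knockout libraries correlated best with the control of their own number.

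PLA2G4A ranged from 6.07 without control replicate 3 to 7.03 without control replicate 1 on the log2 scale, and ERVMER61-1 from 3.76 to 4.03. Signs turned with the neighbourhood median taken out for PAFAH1B3 (0.33), MAPK3 (-0.019), KHSRP (-0.11) and IVNS1ABP (0.00936). They also turned for the uncalled IVNS1ABP (0.035) and TPR (0.014) with library size alone, for the same genes with upper-quartile scaling (0.027 and 0.0061), and for TPR without SETDB1-knockout replicate 3 (0.00618, against -0.0749 without replicate 1). The cause was not tested. Without PLA2G4A and ERVMER61-1, which have no test and kept their direction throughout, 807 of 868 values of 58 named genes kept direction and side of the threshold.

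With 2 reads in the control group, depth leaves the size of the PLA2G4A rise known only within its counting interval. The values of PTGES, PTGS2 and ERVMER61-1 rest on 15 to 239 reads per group.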

Other observations

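A few pathway genes under 1 CPM in both groups fell outside the naming rule and were chosen after their values were seen. PTGDS, the prostaglandin D synthase gene, had 40 reads over the knockout libraries and 14 over the control libraries (log2 1.47 ± 0.38). ALOXE3, an epidermal lipoxygenase gene, had 90 and 29 counts (log2 1.60 ± 0.30, edgeR adjusted p = 1.21e-04). CELF2, which encodes an RNA-binding protein that can act on PTGS2 mRNA, had 37 and 6 counts (log2 2.53 ± 0.48). PTGFRN had 25 and 81 counts (log2 -1.71 ± 0.28). PTGDS and CELF2 reached 11 counts only in knockout samples, and PTGFRN only in control samples. Each could be a row only through the group where it was higher, so no adjusted p is given for them. All of them are among the pathway genes called.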
